A study of Schizosaccharomyces pombe with 7 samples.

Results

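Deletion of fft3 was compared with wild type for newly made histone H3 along the chromosomes of fission yeast (Schizosaccharomyces pombe), with each mutant array set against wild type from the same slide. The comparison used 5 of the 7 arrays of the study: both arrays of genotype fft3_delta (fft3Δ 1 and fft3Δ 2) and the 3 wild-type arrays. fft3Δ 1 shared slide 1 with wild type 1, and fft3Δ 2 shared slide 2 with wild type 2. Wild type 3 lay on slide 3 and served as an extra control. Cells of all 5 arrays grew at 30 °C in minimal medium with 8% glucose and received 15 mM hydroxyurea (HU), which stalls DNA replication, for 4 h. A FLAG-tagged H3 was then induced for 2 h by 4% sucrose, with HU still present. Chromatin was fixed in 1% formaldehyde and sheared to 500 to 1000 bp. DNA recovered with an anti-FLAG antibody (ChIP) was labelled with Cy5, and whole-cell extract DNA of the same cells (input) with Cy3, after amplification by random-primed PCR and with no dye swap. The mutant groups of slide 3, clr3_delta and fft3_delta clr3_delta with 1 array each, enter only where the effect of fft3 was compared between backgrounds.

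Fft3 is an ATP-driven chromatin remodeller of the Snf2 family. In fission yeast it is known for keeping heterochromatin silent and for keeping the borders between silent and active chromatin in place, among them those at centromeres and subtelomeres. Tagged H3 made while replication is blocked enters chromatin mainly where nucleosomes are exchanged, so its enrichment is read as a measure of histone turnover. Heterochromatin of the outer centromere repeats, the silent mating-type locus and the subtelomeres is known for low turnover, and the central core of a centromere carries the H3 variant Cnp1 in place of much of its H3.

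The arrays held 43993 probes of 60 bases, with 1 probe every 50 bases. They covered a block of chromosome II with centromere 2 and the mating-type region (999111–3048020 without its gaps), the last 50 kb on the right of the same chromosome, the left-hand end of chromosome III, and a mating-type contig with coordinates of its own. Positions below refer to the reference ASM294v3. Every value is a log2 ratio of ChIP to input signal centred on the median of its array, so it is a level relative to that array and carries no total amount of new H3. Each ratio averages over many cells, so fewer cells with new H3 at a site and less new H3 in each cell cannot be told apart. At least 99.44% of probes were well above background in each channel on every array, and 0 spots were saturated. The fft3 gene was not among the genes measured, so the deletion itself was not checked. Whether arrays of like genotype stem from different cultures is not said in the labels, so a p-value here reflects spread among arrays that may be technical. With so few arrays, precision is limited throughout.

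The pairs of slide 1 and slide 2 did not carry the same mating-type locus. Between 25 and 29 kb of the contig the centred log2 input signal lay between −8.62 and −4.32 in fft3Δ 1 and between −8.40 and −4.59 in wild type 1. The same 4 kb gave −0.58 to 1.09 in fft3Δ 2, −0.38 to 0.98 in wild type 2 and −0.44 to 0.88 in wild type 3. Between 21 and 23 kb the order was turned round, with −3.77 and −4.53 per kb in fft3Δ 2, −3.65 and −4.51 in wild type 2, and −3.58 and −4.70 in wild type 3, against −0.51 and −1.10 in fft3Δ 1 and −0.37 and −0.98 in wild type 1. The DNA missing from input was thus the same in fft3Δ and wild type of a slide and differed between slides 1 and 2. Differences within slide 1 or slide 2 compare like loci there, and the 5-array values do not. Ratios over the missing stretches rest on almost no input.

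No single window or gene passed the paired test. Values of 1-kb windows were fitted with limma with slide as a block, which leaves 1 residual degree of freedom, and the threshold for a call was 0.05 after Benjamini-Hochberg adjustment. This called 0 of 2204 windows (0% of all tested) and 0 of 2218 genes (0%). The lowest limma adjusted p was 0.107 among windows and 0.0572 among genes. At an unadjusted p under 0.05 there were 99 windows higher and 34 lower in fft3Δ, and 106 genes higher and 33 lower. Of the 99 windows, 38 belonged to the right subtelomere, 15 to the mating-type contig, 6 to the interval rpp202 to emc3 of the mating-type region, and 24 to the chromosome II arm, which holds 1976 of all windows. Contig probes were not checked for sequence shared with chromosome II. Some contig windows nearly match windows of this interval, so counts of contig and interval may hold the same loci, here and below. The call depended on the treatment of background: after normexp correction limma called 28 windows, all higher in fft3Δ, of which 18 belonged to the right subtelomere, 5 to the contig and 5 to the interval rpp202 to emc3.

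The windows with differences of at least 0.3 on both slides were therefore described by count. There were 42 such windows higher in fft3Δ (1.91% of all windows) and 1 lower (0.0454%). These counts were 72 and 11 with normexp and 73 higher with loess, and 10 higher with probes found once in the reference. Of the 42, the right subtelomere held 22 among its 51 windows. The mating-type contig held 7, the interval rpp202 to emc3 held 6, the arm 3, the ribosomal DNA end of chromosome III 2, and the central core of centromere 2 and the interval mat1 to rpp202 held 1 each. The 7 include 21001–22010 of the contig, where input was nearly missing on slide 2. The windows of contig and interval may be the same loci, and those of the ribosomal DNA may be the same sequence. Both fft3Δ arrays lay above all 3 wild-type arrays in 198 windows (8.98%) and below all of them in 217 (9.85%). Of the 198, 131 lay on the arm and 39 in the right subtelomere; of the 217, 211 lay on the arm and 0 in the right subtelomere. On simulated data the paired limma fit called 100% of differences of 1 and 44% of increases of 0.5, both on the log2 scale. All simulated windows had the same spread, unlike the real windows, so these shares need not hold for the real data.

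**Figure D1:**
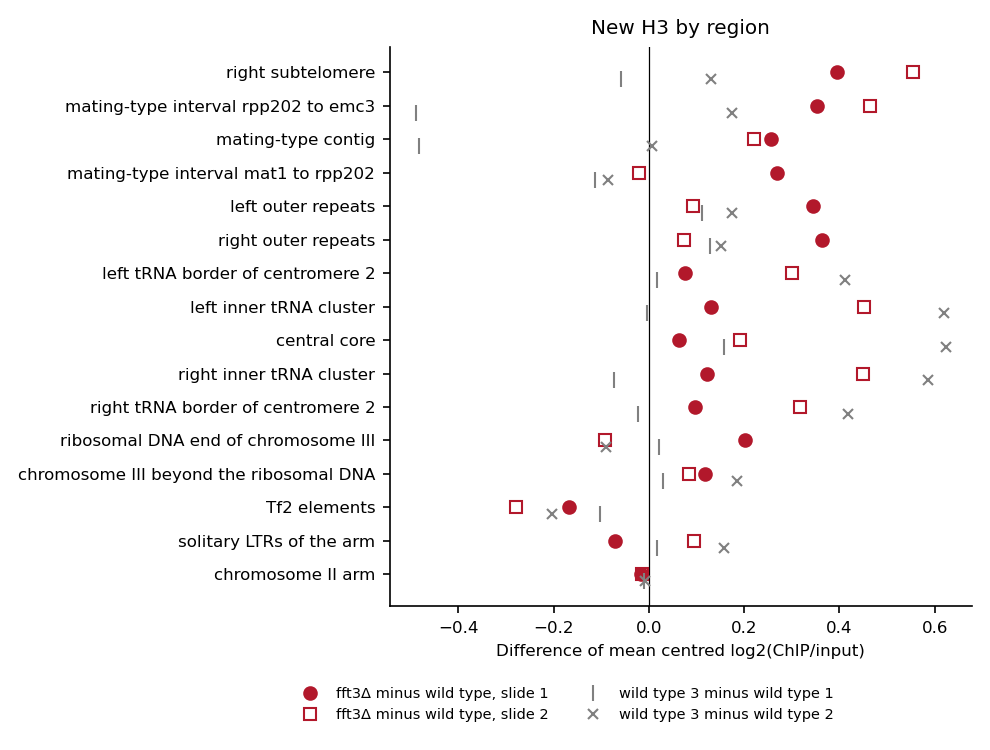
Difference of the mean centred log2(ChIP/input) for each region (horizontal axis, log2 units), with fft3Δ minus wild type on slide 1 as filled circles and on slide 2 as open squares, and the differences between wild-type arrays as grey marks. In the right subtelomere both fft3Δ differences (0.39 and 0.55) lie to the right of both wild-type differences (−0.06 and 0.13), whereas in the central core wild type 3 minus wild type 2 (0.62) exceeds both fft3Δ differences (0.06 and 0.19).

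The right subtelomere of chromosome II (II: 4489801–4539760, 999 probes) was the stretch with the most windows higher in fft3Δ by at least 0.3 on both slides. Its mean level was −0.16 in fft3Δ 1 and −0.19 in fft3Δ 2, against −0.55, −0.74 and −0.61 in wild type 1, 2 and 3. Both fft3Δ arrays lay above all wild-type arrays, and the fft3Δ arrays were close to each other. fft3Δ exceeded wild type by 0.39 on slide 1 and by 0.55 on slide 2. An exact two-sided permutation of the 5 arrays, with 10 possible splits, cannot go below p = 0.1, which is what it gave, so it could not pass 0.05. This test takes no account of the slides, here and below. Of the 51 windows, 49 were higher in fft3Δ on both slides (26.7% of all windows were) and 39 lay above all wild-type arrays (8.98% of all windows did). The input signal of the whole stretch differed by 0.01 on each slide, and the ChIP signal alone by 0.41 and 0.56. Probes here are mostly repeated, with 81.2% having central bases that occur elsewhere in the reference, so part of their signal may come from other chromosome ends.

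Across the subtelomere the slides placed the difference differently. Counted from the last probe inward in steps of 10 kb, the difference on slide 1 was 0.41, 0.46, 0.51, 0.39 and 0.20, and on slide 2 it was 0.13, 0.35, 0.75, 0.86 and 0.69. Slide 2 thus showed its largest differences 20 to 50 kb from the end and slide 1 within the outer 40 kb. The number of windows above all wild-type arrays was 4 of 10, 8 of 10, 9 of 10, 9 of 10 and 9 of 11 (8.98% of all windows). Slide 2 had the larger difference in 0, 3, 7, 10 and 10 windows of these steps. The input moved along with this on slide 2, where it differed by 0.36 in the outermost 10 kb, by −0.19 between 30 and 40 kb and by −0.23 between 40 and 50 kb, against −0.10, 0.02 and 0.06 on slide 1. The part of input in the slope was not tested. In the ChIP signal alone the steps gave 0.31, 0.55, 0.50, 0.42 and 0.27 on slide 1 and 0.48, 0.43, 0.75, 0.67 and 0.46 on slide 2, so in that channel every step was higher in fft3Δ on both slides.

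**Figure D2:**
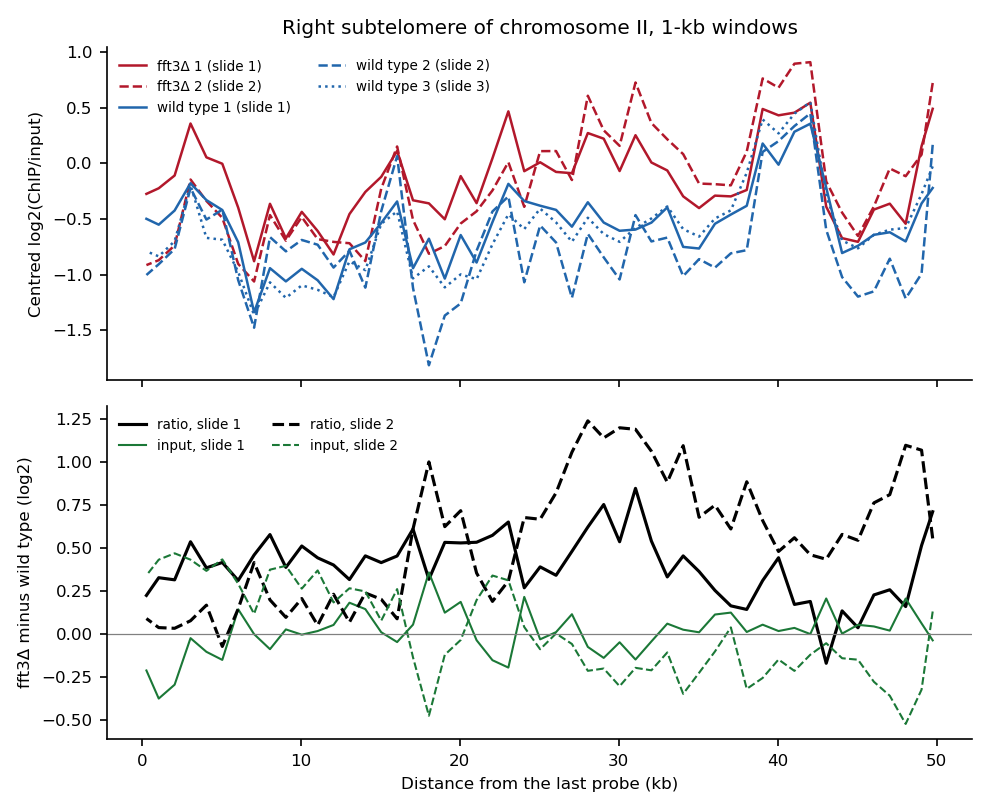
Top, centred log2(ChIP/input) of 1-kb windows of the right subtelomere against the distance from the last probe in kb, with fft3Δ arrays in red and wild-type arrays in blue; bottom, fft3Δ minus wild type within each slide for the ratio (black) and for the input signal alone (green). Both black lines stay above 0 nearly throughout, the slide 2 line reaching 1.24 near 28 kb from the end and the slide 1 line 0.85 near 31 kb.

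The centre of this higher stretch was a stretch of uncharacterized genes and noncoding transcripts. The highest window was II: 4508201–4509210, with 0.25 in fft3Δ 1 and 0.73 in fft3Δ 2, against −0.59, −0.46 and −0.58 in wild type 1, 2 and 3 (limma adjusted p = 0.107). In this window new H3 was above the array median in both fft3Δ arrays and below it in all wild-type arrays. The second highest, 4510201–4511210, gave 0.22 and 0.30 in fft3Δ, against −0.53, −0.84 and −0.64 in wild type (limma adjusted p = 0.110). The lowest windows were 4496201–4497210, with differences of −0.17 and 0.43 on slides 1 and 2, and the outermost, 4539201–4539760, with 0.22 and 0.09.

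The highest window holds the start of SPBCPT2R1.02 (II: 4508450–4508809, plus strand), a coding gene for an uncharacterized protein. The 300 bases around its annotated start are shown because new H3 differed most there (ASM294v3, II: 4508200–4508499, plus strand; capitals mark the 50 bases from the annotated start of the gene).
SPBCPT2R1.02: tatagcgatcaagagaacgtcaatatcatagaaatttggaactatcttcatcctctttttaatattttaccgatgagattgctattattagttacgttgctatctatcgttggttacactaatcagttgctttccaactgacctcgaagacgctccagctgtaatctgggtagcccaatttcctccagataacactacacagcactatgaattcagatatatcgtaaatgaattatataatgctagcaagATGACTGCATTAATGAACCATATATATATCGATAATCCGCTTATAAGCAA
This window is 65.0% A and T, against a median of 67.0% over windows of the same kind at 5111 coding genes. The letters TATAAA were searched on both strands and were found 0 times here, while 48.1% of the 5111 windows hold them. Over the gene, new H3 stood at 0.24 in fft3Δ 1 and 0.80 in fft3Δ 2, against −0.71, −0.42 and −0.59 in wild type 1, 2 and 3. All 7 of its probes are repeated. The differences were 0.94 and 1.22 on slides 1 and 2, with a mean of 1.08 ± 0.12 (SE, limma adjusted p = 0.0572), the highest of all genes and short of the threshold. With slide as a random block limma called it (adjusted p = 0.0215), together with SPNCRNA.6638 and SPNCRNA.6639.

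Genes next to it had values of the same kind. The antisense noncoding gene SPNCRNA.6638, whose probes overlap those of SPBCPT2R1.02, stood at 0.30 and 0.81 in fft3Δ, against −0.57, −0.35 and −0.54 in wild type (limma adjusted p = 0.0572). SPNCRNA.6639 gave 0.10 and 0.29 in fft3Δ, against −0.56, −0.86 and −0.56 in wild type, and SPBCPT2R1.03 gave 0.02 and 0.14 against −0.52, −0.97 and −0.61 (limma adjusted p = 0.232 each). In each of these genes both fft3Δ arrays lay above the median of their array and above all wild-type arrays. A long terminal repeat (LTR), the end sequence left by a retrotransposon, at 4507733–4508064 just upstream gave −0.03 and 0.49 in fft3Δ, against −0.70, −0.95 and −0.61 in wild type, with differences of 0.68 and 1.44 on slides 1 and 2.

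Among the 48 genes of the right subtelomere, 37 were higher in fft3Δ on both slides and 0 lower on both, against 28.4% and 26.1% of all genes. Of the 48, 32 lay above all wild-type arrays (9.11% of all genes did) and 0 below them (8.84%). The median difference over the 48 was 0.42 on slide 1 and 0.35 on slide 2, against 0.01 and 0.00 over all 2218 genes. The slides shared the difference unlike at gal1, on the centromere side, and at tlh2, on the telomere side. For gal1 (4488298–4490271), the galactokinase gene, 9 probes without repeats gave 0.50 and 0.73 in fft3Δ, against −0.23, 0.17 and −0.01 in wild type, with differences of 0.73 and 0.55. For tlh2 (4526885–4532899), a RecQ-type helicase gene, the levels were −0.63 and −0.66 in fft3Δ, against −1.09, −0.85 and −1.17 in wild type, with differences of 0.46 and 0.19. tlh2 thus stayed below the array median on all 5 arrays, while gal1 was above it in fft3Δ and near it in wild type. Limma adjusted p-values were 0.232 for gal1 and 0.772 for tlh2.

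A short stretch toward the centromere side of the subtelomere already had new H3 above the array median in most wild-type values. The windows from 4497201 to 4501210 stood at 0.43 to 0.91 over both fft3Δ arrays, against −0.01 to 0.55 over the wild-type arrays. They hold SPBPB2B2.16C, annotated as a membrane transporter of the major facilitator family, and the noncoding gene SPNCRNA.448. SPBPB2B2.16C gave 0.46 and 0.91 in fft3Δ, against 0.26, 0.35 and 0.46 in wild type, so fft3Δ 1 and wild type 3 were level. SPNCRNA.448 gave 0.56 and 0.76 in fft3Δ, against 0.19, 0.19 and 0.38 in wild type. The lowest genes of the subtelomere lie beside them. SPBPB2B2.15, a gene with a Vel1p domain, had differences of −0.18 and 0.41, and its antisense partner SPNCRNA.6634 had −0.34 and 0.44, so these changed sign between slides.

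In centromere 2 the outer repeats, which are transcribed and packed into heterochromatin, differed between fft3Δ and wild type mainly on slide 1. The left outer repeats (II: 1602418–1618292, 315 probes) stood at −1.08 in fft3Δ 1 and −1.39 in fft3Δ 2, against −1.42, −1.48 and −1.31 in wild type 1, 2 and 3. The right outer repeats (1630123–1643848, 275 probes) stood at −1.07 and −1.38 in fft3Δ, against −1.43, −1.46 and −1.30 in wild type. Thus fft3Δ 1 lay above all wild-type arrays and fft3Δ 2 below wild type 3. The differences were 0.34 and 0.09 on the left and 0.36 and 0.07 on the right for slides 1 and 2, with an exact two-sided permutation p = 0.3 on either side. After quantile normalization the mean of both slides was −0.02 on the left and −0.01 on the right. With 95.9% and 92.4% repeated probes, the sides are largely the same sequences and not independent. In all, 10 of 17 windows on the left and 11 of 14 on the right were higher on both slides, and 4 on each side lay above all wild-type arrays, beside 26.7% and 8.98% of all windows. Of the 35 noncoding genes of the repeats, 22 were higher on both slides and 8 above all wild-type arrays, beside 28.4% and 9.11% of all genes.

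Input differed at the outer repeats too. Over both sides it stood at 1.90 in fft3Δ 1 and 1.97 in fft3Δ 2, against 1.31, 1.86 and 2.00 in wild type 1, 2 and 3, so wild type 1 was the array that stood apart. The ChIP signal alone differed by 0.95 on slide 1 and 0.19 on slide 2. In windows of 5 kb limma called 0 of 443 (0%) for input, with a lowest adjusted p of 0.178 and 13 windows at an unadjusted p under 0.05. In windows of 2 kb it called 13, all higher in fft3Δ: 8 in the ribosomal DNA, by 0.44 to 0.55, and 5 in the outer repeats, by 0.48 to 0.53. Probes of both stretches are mostly or all repeated, so these windows are not independent. The copy number of these repeats and a difference in how input was labelled cannot be told apart.

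The central core (II: 1619257–1629158, 198 probes) had the lowest level of the regions on every array. It stood at −2.86 in fft3Δ 1 and −3.20 in fft3Δ 2, against −2.93, −3.39 and −2.77 in wild type 1, 2 and 3. The differences of 0.06 and 0.19 on slides 1 and 2 were smaller than the 0.62 between wild type 3 and wild type 2 (exact two-sided permutation p = 1). The outermost windows of the core were its highest. The left edge, 1619211–1620220, gave −2.24 and −2.72 in fft3Δ, against −2.62, −2.997 and −2.26 in wild type, with differences of 0.38 and 0.28. The right edge, 1628211–1629220, gave −2.26 and −2.74 in fft3Δ, against −2.72, −3.05 and −2.29 in wild type, with differences of 0.45 and 0.32. On slide 2 the ChIP signal alone differed by −0.08 at the left edge and −0.01 at the right, beside input differences of −0.35 and −0.33. On slide 1 ChIP differed by 0.50 and 0.60, and input by 0.11 and 0.15. Levels of both edges were close on every array and 30.3% of core probes are repeated, so the edges may share signal. Wild type 3 lay beside fft3Δ 1 at both edges, so the genotypes overlap (limma adjusted p = 0.703 and 0.612). The other 8 windows differed by −0.22 to 0.13 on slide 1 and −0.16 to 0.46 on slide 2.

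Each edge window abuts a valine tRNA gene. tRNA genes flank the core and the outer repeats of this centromere and are known there as barriers to heterochromatin. The pair is shown because it bounds the core and because both genes had higher levels on each slide (ASM294v3; SPBTRNAVAL.06 at II: 1619174–1619256, minus strand, and SPBTRNAVAL.07 at II: 1629159–1629241, plus strand, each written along its own strand). Capitals mark the letters GTTCGANNC, the core of the B box, the internal promoter element of tRNA genes.
SPBTRNAVAL.06: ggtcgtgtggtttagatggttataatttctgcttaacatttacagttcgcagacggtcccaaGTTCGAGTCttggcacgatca
SPBTRNAVAL.07: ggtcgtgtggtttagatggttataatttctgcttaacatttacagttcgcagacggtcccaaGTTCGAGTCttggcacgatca
The genes are identical in 83 of 83 bases, so their probes may share signal. These letters were found on either strand in 77.2% of 171 tRNA genes and in 1.41% of the 5111 windows around coding starts. SPBTRNAVAL.06 gave −0.53 and −0.68 in fft3Δ, against −0.83, −1.01 and −0.64 in wild type, with differences of 0.29 and 0.33. SPBTRNAVAL.07 gave −0.52 and −0.68 in fft3Δ, against −0.69, −1.001 and −0.60 in wild type, with differences of 0.17 and 0.32. In either gene wild type 3 lay between the fft3Δ arrays (limma adjusted p = 0.772 each).

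Over all 24 tRNA genes, 13 were higher in fft3Δ on both slides and 0 lower on both, where 28.4% and 26.1% of all genes were. Of their probes 64.6% are repeated (85.3% at centromere 2 and its borders), so these genes may share signal and are not independent. Their median differences were 0.02 (slide 1) and 0.29 (slide 2). Both fft3Δ arrays exceeded all wild-type arrays at 2 of them, a share near the 9.11% of all genes. The 17 genes at centromere 2 had medians of 0.00 and 0.33, and the 7 elsewhere on the arm 0.03 and 0.19. Differences at these genes were thus larger on slide 2, where input was lower: over all tRNA genes input differed by −0.24 on slide 2 and by 0.17 on slide 1. The largest value of slide 2 belonged to SPBTRNAGLY.09, at −0.53 and −0.34 in fft3Δ, against −0.34, −1.01 and −0.22 in wild type, with differences of −0.20 and 0.66 and input differences of 0.27 and −0.79. Wild type 2 was the lowest of the 5 arrays there. The same held for the stretches that carry the tRNA genes. The inner clusters beside the core differed by 0.13 and 0.45 on the left and 0.12 and 0.45 on the right, and the outer borders by 0.08 and 0.30 and by 0.10 and 0.32. Wild type 3 stood 0.41 to 0.62 above wild type 2 in all 4 of them.

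**Figure D3:**
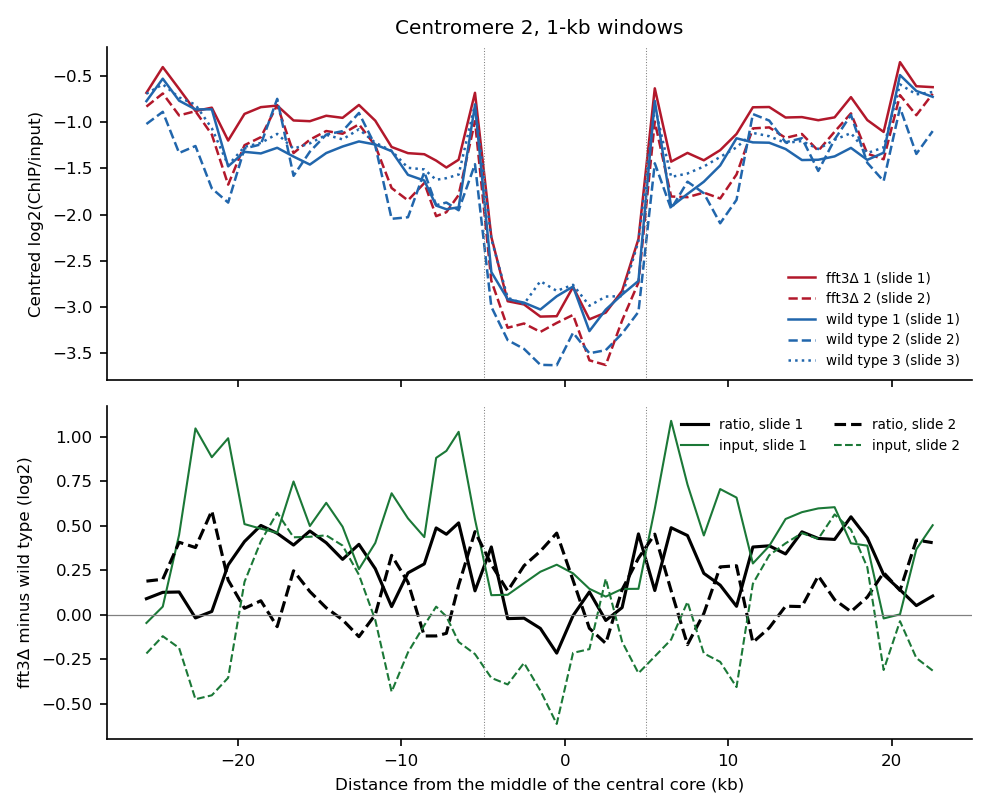
Top, centred log2(ChIP/input) of 1-kb windows across centromere 2 against the distance from the middle of the central core in kb, with fft3Δ in red and wild type in blue and the core between the dotted lines; bottom, fft3Δ minus wild type within each slide for the ratio (black) and for input alone (green). Over the outer repeats input differs by up to 1.09 on slide 1, and the ratio differs by 0.55 at most on that slide.

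The mating-type region was divided at rpp202 for description. From rpp202 to emc3 (II: 2128468–2138318, 197 probes, 53.8% repeated) new H3 stood at 0.07 in fft3Δ 1 and −0.48 in fft3Δ 2, against −0.28, −0.95 and −0.77 in wild type 1, 2 and 3. The differences were 0.35 and 0.46, and 9 of 10 windows were higher on both slides (26.7% of all windows were). Only 1 window lay above all wild-type arrays, a share near the 8.98% of all windows. In the others fft3Δ 2 or fft3Δ 1 was level with or below a wild-type array, in most of them wild type 1, which carries the other form of the locus. The highest window, 2135211–2136220, gave −0.02 and −0.52 in fft3Δ, against −0.48, −1.50 and −1.26 in wild type (limma adjusted p = 0.185). The second highest, 2130211–2131220, gave −0.08 and −0.61 in fft3Δ, against −0.52, −1.54 and −1.28 in wild type (limma adjusted p = 0.185). On each slide fft3Δ lay above its own wild type, and wild type 3 lay beside wild type 2.

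These windows hold noncoding genes of the silent interval. SPNCRNA.5506 gave 0.04 and −0.42 in fft3Δ, against −0.48, −1.42 and −1.21 in wild type, and was the member with the largest differences, 0.52 and 0.99. SPNCRNA.389, SPNCRNA.390 and SPNCRNA.5507 had differences of 0.48, 0.45 and 0.48 on slide 1 and 0.89, 0.85 and 0.86 on slide 2. SPNCRNA.5505, at the border with rpp202 and without repeated probes, gave 0.46 and 0.21 in fft3Δ, against −0.01, −0.42 and −0.14 in wild type, so there, as in SPNCRNA.5506, the genotypes did not overlap (limma adjusted p = 0.232 for each of the 5). Input was lower in fft3Δ across the interval, by −0.16 and −0.23, and the ChIP signal alone differed by 0.19 and 0.24. In the window at the border with rpp202, 2128211–2129220, input differed by −0.32 and −0.42 and ChIP by 0.10 and 0.18. The cassette genes inside it went differently: mat3-Mc, which encodes a mating-type factor, had differences of 0.34 and −0.28, and mat1-Mc, its copy at the expressed locus, 0.39 and −0.28. All probes of both are repeated, so they share signal and count as a single observation. From mat1 to rpp202 (2114219–2128467) the region differed by 0.27 and −0.02. Of its 14 windows, 8 were higher on both slides and 5 lay above all wild-type arrays. The shares of all windows were 26.7% and 8.98%. From 2125211 to 2128220, next to rpp202, windows differed by 0.22 to 0.44 on slide 1 and 0.26 to 0.35 on slide 2. Higher values on both slides were thus not confined to the interval beyond rpp202.

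On the contig fft3Δ was higher by 0.26 on slide 1 and by 0.22 on slide 2, with 25 of 41 windows higher on both (26.7% of all windows were) and 7 of at least 0.3 on both slides (1.91%). The contig window 20001–21010 gave 0.04 and −0.50 in fft3Δ, against −0.46, −1.46 and −1.21 in wild type. It nearly matched 2135211–2136220 of chromosome II, so contig and chromosome II values are not independent. The highest window, 23001–24010 of the contig, stood at 0.14 and 0.17 in fft3Δ, against −0.24, −1.27 and −1.21 in wild type, with differences of 0.38 and 1.43. In the next 2 kb slide 2 differed by 1.35 and 1.34 and slide 1 by 0.07 and −0.02. Input on slide 1 was lower in the first of these (−2.09 in fft3Δ 1 and −2.07 in wild type 1) and nearly absent from 25 to 29 kb, so the difference from 25 kb to 29 kb rests on slide 2 alone. The lowest windows, 1001–2010 and 2001–3010, had differences of 0.10 and 0.02 on slide 1 and −0.46 and −0.54 on slide 2, beside input differences of 0.53 and 0.54 on slide 2.

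The left end of chromosome III carries ribosomal DNA, where the direction differed between slides and between spacers and rRNA genes. Placement of these probes is weak: the correlation of input with GC content was 0.452 at the offset used and 0.361 at the best other offset. Over the ribosomal DNA (III: 1–23130, 461 probes, 100% repeated) the differences were 0.20 and −0.09. The windows 4011–5020 and 15011–16020, which lie between the rRNA genes, were the highest. With all probes repeated and near-equal values, they may share signal and do not count as independent observations. The first gave 0.34 and −0.33 in fft3Δ, against −0.08, −0.77 and −0.33 in wild type, with differences of 0.42 and 0.44, and the other differed by 0.41 and 0.45. fft3Δ 2 was level with wild type 3 in the first, so the genotypes overlap. The 7 rRNA genes had median differences of 0.05 and −0.40. Input stood at 1.39 in fft3Δ 1 and 1.46 in fft3Δ 2, against 1.12, 0.84 and −0.17 in wild type 1, 2 and 3, so the wild-type arrays differed from each other by more than the genotypes did. Beyond it (III: 23131–49970) the differences were 0.12 and 0.08. The highest windows there, 47011–48020 and 48011–49020, lie at hsp3101, a gene of the Hsp31 family. It gave 1.26 and 0.75 in fft3Δ, against 0.71, 0.64 and 0.43 in wild type, with differences of 0.55 and 0.11 (limma adjusted p = 0.772). The arrays did not overlap.

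The chromosome II arm outside these regions differed by −0.02 on either slide, and its windows did not vary together between slides. Across the 1976 windows of the arm, which are not independent replicates, the slide 1 difference and the slide 2 difference correlated at r = 0.0046, against 0.22 over the 228 other windows. With loess normalization within arrays the arm gave r = 0.27. Across arm windows the difference of the ratio was set against that of each channel. Against input, r was −0.59 (slide 1) and −0.80 (slide 2). Against ChIP, r was 0.85 (slide 1) and 0.34 (slide 2). Slide 1 thus followed ChIP more closely, and slide 2 followed input more closely. The ratio divides ChIP by input, so these values share a signal with it and are a description only. The SD of the input difference was 0.08 on slide 1 and 0.22 on slide 2.

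**Figure D4:**
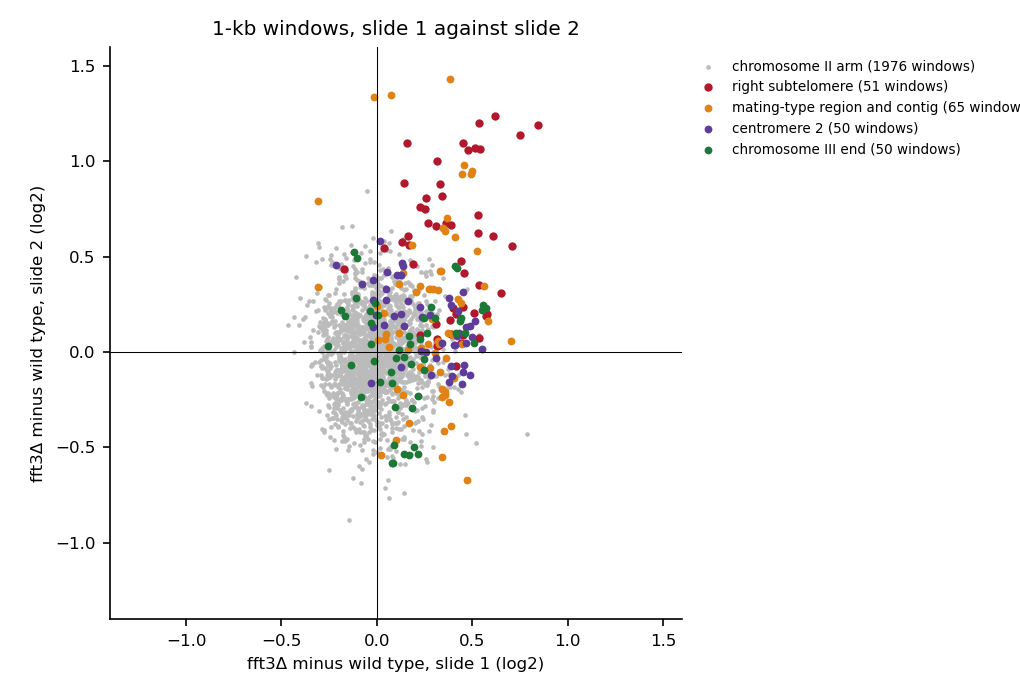
Each point is a 1-kb window, with fft3Δ minus wild type on slide 1 (horizontal, log2) against slide 2 (vertical, log2); the chromosome II arm is grey and the other regions are coloured. Grey points form a cloud around 0 with no slope, and 49 of the 51 subtelomeric windows lie above 0 on both axes.

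Arm genes were ranked by the smaller of their differences on slides 1 and 2. Each named gene therefore lies beyond its paired wild type by the way it was picked, which makes non-overlap more likely. The highest was SPNCRNA.5860 (2871252–2871573), at 0.27 and 0.17 in fft3Δ, against −0.17, −0.24 and 0.08 in wild type, with differences of 0.44 and 0.42 (limma adjusted p = 0.401). SPNCRNA.5466 and the coding gene antisense to it, vps71, came next, with 0.42 and 0.46 and with 0.39 and 0.45. vps71 encodes a subunit of the Swr1 complex, which places the H2A variant in nucleosomes. It gave 0.50 and 0.17 in fft3Δ, against 0.12, −0.28 and 0.05 in wild type, beside an input difference of −0.48 on slide 2. SPBC725.03, annotated as a pyridoxamine 5′-phosphate oxidase, gave 1.37 and 1.26 in fft3Δ, against 0.92, 0.91 and 0.78 in wild type, with input differences of −0.09 and 0.00. In all 4 of these genes both fft3Δ arrays exceeded all wild-type arrays (9.11% of all genes did), which the ranking favours. The rest of the 10 highest were SPBC3H7.08C, SPBC15D4.13C, SPNCRNA.5253, SPNCRNA.5845, SPNCRNA.5749 and SPNCRNA.5307, with smaller differences of 0.28 to 0.32.

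The lowest arm gene was SPNCRNA.5082 (1233751–1235024), at −0.36 and −0.35 in fft3Δ, against −0.09, −0.03 and −0.19 in wild type, with differences of −0.27 and −0.31. The window 1234111–1235120 over it was the only arm window at −0.3 or below on both slides. gcn20, which encodes an ATPase of translational control, gave −0.44 and −0.36 in fft3Δ, against −0.18, −0.11 and −0.18 in wild type. pwp1, for a WD repeat protein, irs1, for the isoleucine tRNA ligase, and orc4, for a subunit of the origin recognition complex, had differences of −0.24 and −0.28, −0.24 and −0.29, and −0.23 and −0.25. In each of these 5 genes both fft3Δ arrays lay below all wild-type arrays (8.84% of all genes did), with limma adjusted p = 0.772. The ranking favours this too. The others were SPNCRNA.5362, SPNCRNA.5149, SPNCRNA.5329, SPNCRNA.5096 and SPNCRNA.5353, of which SPNCRNA.5362 overlapped with wild type.

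Differences on the arm were higher where the level of new H3 was higher. Windows were split into 10 bins by wild type 3, which enters neither slide's difference. The lowest bin had a mean difference of −0.12 on slide 1 and −0.11 on slide 2, and the highest bin 0.11 and 0.01. On slide 1 the bins climbed almost without exception, while on slide 2 they climbed to 0.05 in the ninth bin and were lower in the last. With each slide binned by the wild-type array of the other slide, highest minus lowest bin was 0.27 on slide 1 and 0.026 on slide 2. With arrays scaled to equal spread the slide 1 slope turned to −0.073, so its direction follows how the spread of the arrays is treated.

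Position in genes separated the slides as well, though less so with loess. Over 863 coding genes of the arm, the mean difference on slide 2 was 0.13 between 400 and 300 bases before the annotated start and −0.08 between 800 and 900 bases after it. On slide 1 the same bins gave 0.02 and −0.01. With loess, the mean over 500 bases before the start minus that from 500 to 1000 bases after it was 0.04 on slide 1 and 0.07 on slide 2. Probes in coding genes differed by −0.03 and −0.05, those in noncoding genes alone by 0.04 and 0.10, and those between genes by −0.01 and 0.15. These profiles were not tested, and fragments of 500 to 1000 bp blur them.

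**Figure D5:**
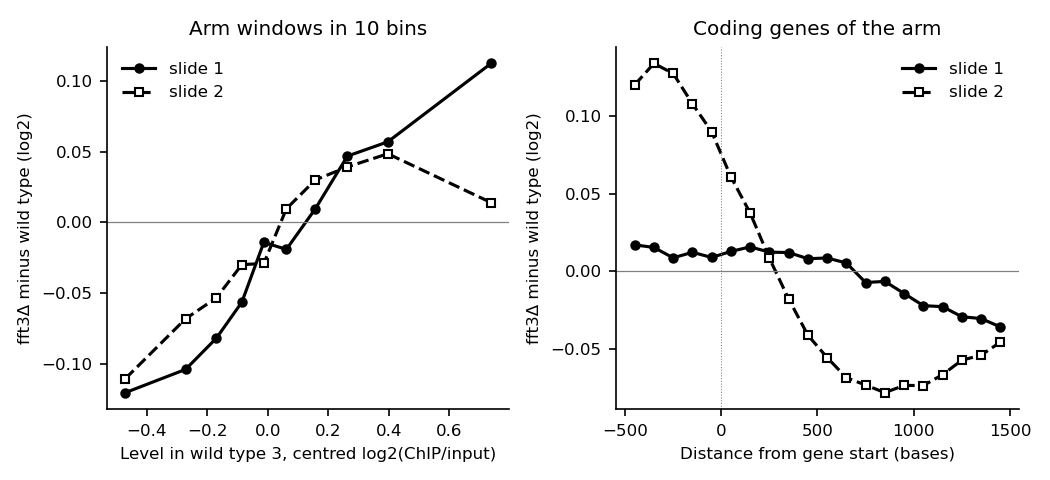
Left, mean fft3Δ minus wild type (log2) of arm windows in 10 bins against the level in wild type 3; right, mean difference of probes in bins of 100 bases around the annotated starts of coding genes of the arm. Filled circles are slide 1 and open squares slide 2, which lie between −0.12 and 0.13 throughout.

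The Tf2 elements, the full-length retrotransposons of this yeast, were the repeats that lay lower. Tf2-9 (II: 1812748–1816749) stood at 0.37 and 0.36 in fft3Δ, against 0.54, 0.64 and 0.42 in wild type, and Tf2-10 (1965390–1969390) at 0.36 and 0.35 in fft3Δ, against 0.53, 0.63 and 0.44 in wild type. In both elements fft3Δ lay below all wild-type arrays, with differences of −0.16 and −0.28 and of −0.17 and −0.28 (limma adjusted p = 0.773 each). They are near copies that share probes (98.1% repeated) and count as a single observation. The input of the pair differed by 0.44 on slide 2 and by 0.03 on slide 1, and the direction turned to 0.14 with loess and to 0.01 in the ChIP signal alone. The 16 solitary LTRs of the arm had median differences of −0.06 and 0.08, with 3 higher on both slides and 2 lower (28.4% and 26.1% of all genes).

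Other gene groups differed little or unlike on the slides. Of 14 snoRNA and snRNA genes, which guide RNA modification and splicing, 7 were higher on both slides and 1 lower. The shares of all genes were 28.4% and 26.1%, and the medians of the 14 were 0.11 and 0.07. snoU14 gave 0.90 and 0.79 in fft3Δ, against 0.80, 0.50 and 0.29 in wild type, so fft3Δ 2 and wild type 1 were level. Of 25 ribosomal protein genes 6 were higher on both and 2 lower, beside the same 28.4% and 26.1%, with medians of 0.12 and −0.14. Of the 25, 2 lay above all wild-type arrays and 0 below, which is near the shares over all genes (9.11% and 8.84%). The 7 genes of 5S rRNA had medians of 0.09 and −0.09. Of the histone genes, hht2 (H3) had differences of −0.32 and 0.05, hhf2 (H4) 0.05 and 0.02, and pht1, which encodes the variant H2A.Z, −0.03 and 0.46, the last beside an input difference of −0.24. Of the stress genes, gpx1 (glutathione peroxidase) had 0.25 and 0.12, hsp16 (a small heat shock protein) −0.20 and 0.07, and atf21 (a transcription factor) −0.12 and −0.25. The heterochromatin factor genes had −0.19 and 0.03 for clr1, −0.01 and −0.08 for tas3, −0.08 and −0.02 for pcf1, and −0.09 and 0.00 for slm9. The lowest limma adjusted p among these groups was 0.715, at a ribosomal protein gene.

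Whether loss of fft3 acted alike without clr3, the gene of a histone deacetylase of heterochromatin, was tested as an interaction over all 7 arrays with slide as a block. The fft3_delta clr3_delta array minus the clr3_delta array gave 0.36 over the right subtelomere, beside the 0.47 mean of the paired slides. It gave 0.79 over the outer repeats, beside 0.22, and 0.75 over the central core, beside 0.13. limma called 0 of 2204 windows (0%) for this difference of effects, with a lowest adjusted p of 0.0712 and 203 windows at an unadjusted p under 0.05, and 0 of 2218 genes, with 0.124 and 246. Among regions the lowest limma adjusted p was 0.332, at the central core and the outer repeats. At SPBPB2B2.16C the effects had opposite signs, with −0.90 without clr3 and 0.20 and 0.56 on slides 1 and 2. In the clr3_delta background these are single arrays of slide 3, assumed to vary like the replicated groups. Their input differed too. Over the outer repeats it stood at 1.501 in fft3_delta clr3_delta, against 1.843 in clr3_delta, and lower input raises the ratio behind the 0.79. Input was higher in fft3_delta clr3_delta over the central core (−1.643 against −1.767) and the right subtelomere (0.785 against 0.551). Whether the effects differ between backgrounds in the ChIP signal alone was not tested. These arrays also differed in the mating-type locus. Between 21 and 23 kb of the contig input was −0.66 and −0.72 per kb in fft3_delta clr3_delta, against −3.86 and −5.21 in clr3_delta. At the mating-type locus the interaction thus compares unlike loci.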

How the data were processed

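Genomic DNA from the ChIP and input of each culture was hybridised to 1 two-colour tiling array, and the arrays were scanned and quantified with Agilent Feature Extraction, per the submitters' processing notes (per the file headers, slide 1 used version 10.7.3.1, and the other slides used 12.0.3.1). The processed signals are intensity values that the authors deposited, with background subtracted and dyes normalized linearly, per the file headers. The deposited series table holds log2 values, which equal the log2 of red over green intensity within 4.9e-08. Spots flagged as outliers by the scanner software (4 to 929 an array) were left out. No build for the probe coordinates was found in the labels or headers. Positions on ASM294v3 were found by the offset at which input signal followed GC content best (0, 900 or 1800 bases, correlations 0.452 to 0.681), and 197 probes in short segments were left unplaced.

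Log2 ratios were centred on the median of each array and averaged over 1-kb windows of at least 5 probes, genes of at least 2 probes and regions. Probes are shared between genes for 1949 genes, and the design does not separate strands. Differences were taken within slides and limma 3.58.1 (R 4.3.3) was used for the fit, with slide as a block and Benjamini-Hochberg adjustment over all windows or genes. Arrays of a slide deviated together from their group means (correlations 0.63 and 0.39 for slides 1 and 2); the pairing comes from the shared slide. Simulated data of 2204 windows were all drawn with the same spread, unlike the real windows. On them this fit called 100% of differences of 1, 44% of +0.5, 62% of −0.5 and 0% of 2004 unchanged windows. Single regions were tested by exact permutation over the 5 arrays. The genes named are the members of the lists and, for the arm, the 10 highest and 10 lowest by the smaller of the differences on both slides, among genes of at least 5 probes that share direction. The members and lists were chosen with earlier results of these data known. Normexp correction (offset 50) used spot and background medians, because the columns at hand hold spot medians, where spot means had been planned. Alternatives are described in the closing section; those on the ChIP channel alone, on the agreement of slides, and loess and equal spread for the level bins and loess for the gene starts were added after seeing the data.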

Additional observations from a re-analysis of the deposited data

How the results depend on the processing

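Without slide as a block, which pairs the arrays, limma called 0 windows, 0 genes and 0 input windows, as with the block, and the subtelomere differed by 0.46; the block changed no call. Windows called higher numbered 28 with normexp, 2 each with equal spread, with probes well above background and with slide as a random block, 7 with intensity trend and robust variance, 48 in 500-base windows (with 1 lower) and 15 in 2-kb windows. Genes called higher numbered 3 with quantile normalization, 3 with the random block and 2 with trend and robust variance. Windows at or above 0.3 on both slides numbered 73 with loess, 72 with normexp, 10 with probes found once in the reference, 85 in 500-base windows and 23 in 2-kb windows. Those at or below −0.3 numbered 4 with equal spread, 11 with normexp, 2 with outlier spots kept, 10 in 500-base windows and 0 in 2-kb windows. In 2-kb input windows 13 were called.

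Mean differences of the slides moved as follows. With loess the arm gave −0.010, Tf2 elements 0.14, Tf2-9 0.14, Tf2-10 0.14, solitary LTRs 0.13 and hht2 0.038. With equal spread the arm gave −0.023, the central core 0.45, hhf2 −0.059 and the slide 1 dependence on level −0.073. Quantile normalization gave −0.016 for the left, −0.0095 for the right and −0.013 for both outer repeats. Normexp gave −0.0098 for the arm, −0.14 for Tf2, −0.015 for hhf2, and 0.58 for the subtelomere, with 0.51 at 10 to 20 kb and 0.77 at 20 to 30 kb. Probes found once gave 0.39 for the subtelomere, 0.27 at 10 to 20 kb and 0.63 at 40 to 50 kb. The median of probes gave −0.0081 for the arm. The ChIP channel alone gave 0.50 for ribosomal DNA, 0.58, 0.56 and 0.57 for left, right and both outer repeats, and 0.011 for Tf2. Bins by the wild type of the other slide gave 0.026 for the slide 2 dependence on level. The cause was not tested for any of these.

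Leaving out each array in turn and, for these counts and for single genes, fitting without the slide block, windows called higher ranged from 0 to 1 and genes from 0 to 6, the higher counts without wild type 1; the counts without the block and with all arrays were 0 and 0. Region and gene differences ranged from −0.092 to 0.20 for ribosomal DNA, 0.073 to 0.36 for the right outer repeats, −0.021 to 0.27 for mat1 to rpp202, 0.39 to 0.86 at 30 to 40 kb and 0.20 to 0.69 at 40 to 50 kb of the subtelomere, −0.071 to 0.095 for solitary LTRs, 0.45 to 0.99 for subtelomeric LTRs, −0.18 to 0.069 for hht2, −0.22 to 0.038 for hsp16, −0.21 to 0.061 for clr1, −0.10 to 9.57e-05 for tas3 and −0.13 to 0.42 for pht1. The subtelomere as a whole ranged from 0.39 to 0.58 over the 15 alternatives run for regions; other window sizes, the random block and the intensity trend were not run for regions.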
